A study of Homo sapiens with 24 samples.

Results

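The HLA class II presentation genes are 10 genes taken by symbol: the transactivator CIITA, the invariant chain CD74, the antigen-presenting chains HLA-DRA, HLA-DRB1, HLA-DPA1, HLA-DPB1, HLA-DQA1 and HLA-DQB1, and the peptide editor chains HLA-DMA and HLA-DMB. All 10 have rows in the deposited tables, among 68930 genes and unassigned transcripts in all, and 4 of them (CIITA, CD74, HLA-DRB1 and HLA-DQB1) passed the filter for testing at each harvest. The samples were UCSD-AML1 and ELF-153, established human acute myeloid leukaemia cell lines, profiled by stranded total RNA sequencing after ribosomal RNA depletion. Cells of each line were left untreated or received 100 nM decitabine (DAC) anew on each of 4 days, and were collected at 96 h or 144 h. DAC is a cytidine analogue that inhibits DNA methylation: once built into DNA it binds the methylating enzymes, and newly copied strands stay unmethylated. All groups, controls included, grew with 20% serum and 5 ng/ml of the cytokine GM-CSF, which is known to act on myeloid antigen-presenting cells. There are 8 groups, 1 for each combination of line, treatment and harvest. Each has 3 libraries, which the labels call technical triplicates, so p-values measure the spread between those libraries only. Each line is a single established culture.

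Class II molecules are heterodimers of an alpha and a beta chain that show peptides from endocytosed protein to CD4 T cells. The chains assemble around the invariant chain in the endoplasmic reticulum, and HLA-DM exchanges the last invariant chain fragment for peptide in the endosome. CIITA binds no DNA itself. It is recruited by RFX, CREB and NF-Y proteins that sit on the X and Y boxes of class II promoters, and its presence largely sets whether a cell transcribes these genes. In blood the programme is known from B cells, dendritic cells and activated macrophages, and myeloid blasts can carry it too.

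Depth was 13148881 to 28528757 assigned reads per library. Values below are scaled reads, meaning reads divided by one size factor per library and summed over the transcript rows of a gene. The tables of the 2 harvests were scaled separately, so no test was made between harvests, and scaled reads are compared within a gene only, since they are not per length. The share of reads on mitochondrial ribosomal RNA at 96 h was 13.1% to 35.0% untreated against 37.3% to 49.8% treated in ELF-153, and 49.3% to 51.3% against 61.7% to 63.8% in UCSD-AML1, with no overlap in either line. At 144 h it was 16.6% to 38.2% against 42.8% to 53.6% in ELF-153, and it overlapped in UCSD-AML1 (44.5% to 52.1% against 38.7% to 58.4%). Of the markers of myeloid progenitors and blasts, CD34 (241 to 378 scaled reads in untreated libraries at 96 h), CD33 and KIT were present in both lines. MPO, the granule peroxidase of myeloblasts, had at most 1 read in any library. MECOM, on the same list, was far lower in untreated ELF-153 than in untreated UCSD-AML1 (log2 difference −10.79 at 96 h). CD38 was listed at 0 in untreated UCSD-AML1 at both harvests, and GATA2 was higher in untreated ELF-153 (0.98 at 96 h). In bulk RNA, fewer expressing cells and less RNA per cell cannot be told apart.

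CIITA, the transactivator (chromosome 16), was far higher in ELF-153 than in UCSD-AML1 and fell with DAC in both lines at both harvests. At 96 h ELF-153 without DAC held 1633, 1778 and 1359 scaled reads (mean 1590 ± 213, SD, n = 3) and untreated UCSD-AML1 181, 127 and 208 (172 ± 41.1). The libraries of the lines did not overlap. The untreated difference, ELF-153 minus UCSD-AML1, was 3.22 ± 0.29 on the log2(value + 1) scale (estimate ± SE, limma, adjusted p = 5.11e-07). With DAC, ELF-153 fell to 581, 557 and 535 at 96 h, a log2 difference of −1.50 ± 0.29 (adjusted p = 0.00114), with no overlap between treated and untreated libraries. Treated ELF-153 therefore still lay above every UCSD-AML1 library of that harvest.

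In UCSD-AML1 at 96 h the treated libraries held 156, 68.6 and 68 scaled reads of CIITA. Replicate 1 lay inside the untreated range and the other two below it. The log2 difference was −0.90 ± 0.29 (limma, adjusted p = 0.0224). This call ended in edgeR with TMM (−0.67, adjusted p = 0.0763) and RLE (−0.69, adjusted p = 0.0706), DESeq2 (−0.69, adjusted p = 0.0662), limma-voom (−0.76, adjusted p = 0.0528) and limma after TMM scaling (−0.76, adjusted p = 0.052). It also ended without any of untreated replicates 1 and 3 and treated replicates 2 and 3, with values from −0.85 to −0.70.

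At 144 h the order of the CIITA levels was the same. Untreated ELF-153 held 1413, 1491 and 1341 scaled reads and treated ELF-153 495, 517 and 579. The log2 difference was −1.42 ± 0.19 (limma, adjusted p = 6.25e-05). In UCSD-AML1 CIITA went from 122, 101 and 167 to 64.7, 63 and 67.6, a log2 difference of −0.96 ± 0.19 (adjusted p = 0.0013). No group overlapped another at this harvest. The untreated line difference was 3.47 ± 0.19 (adjusted p = 9.88e-09). Whether the DAC effect differed between the lines was tested directly, and the line difference, ELF-153 minus UCSD-AML1, was −0.60 ± 0.40 at 96 h (adjusted p = 0.291) and −0.46 ± 0.27 at 144 h (adjusted p = 0.2). A protein-coding row, CIITA-201, held 78.3% of the gene's 7350 reads at 96 h and 77.3% of 6686 at 144 h. That row moved with the gene sum: in ELF-153 it went from 1208, 1442 and 1073 to 427, 456 and 429 scaled reads at 96 h.

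**Figure D1:**
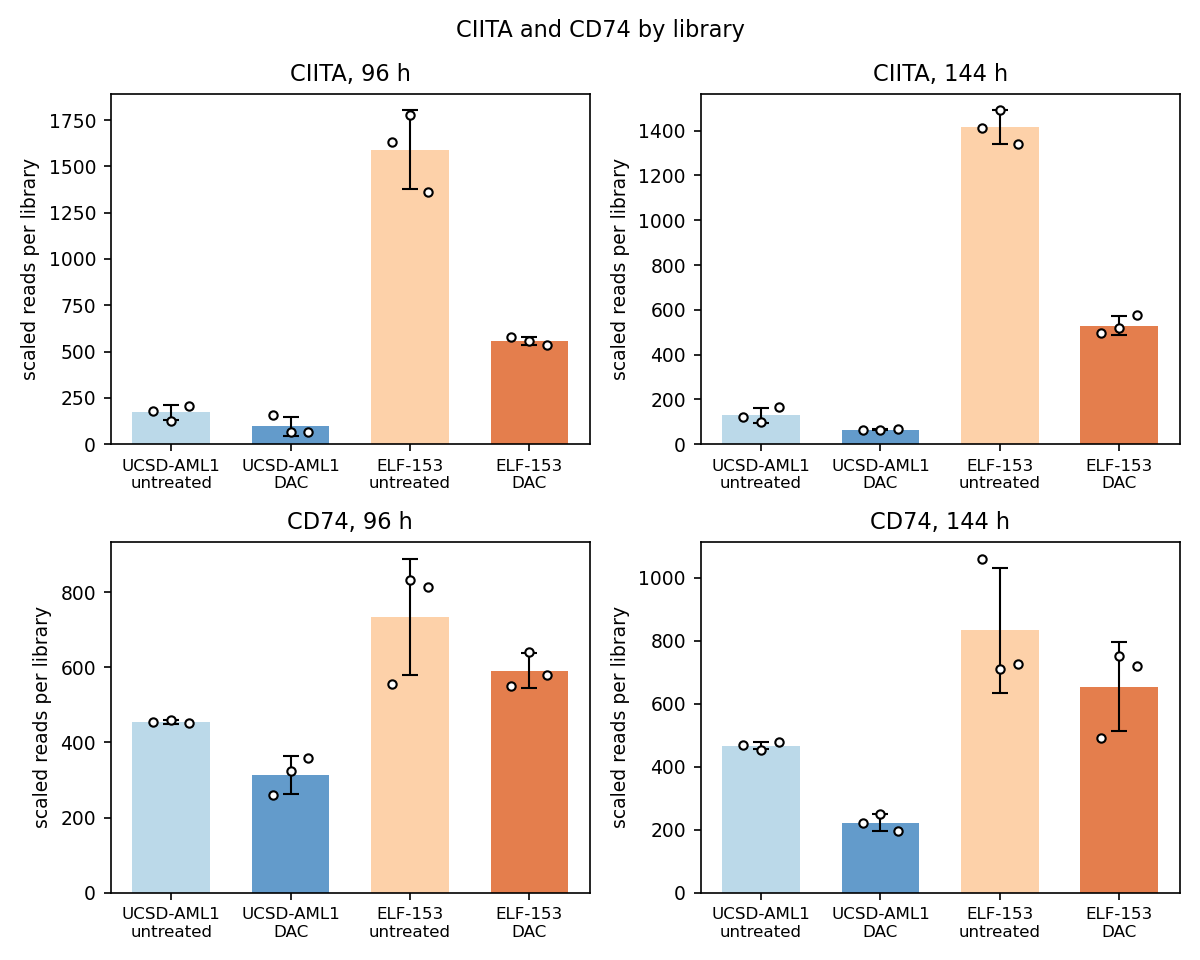
CIITA and CD74 in scaled reads (y axis, from 0) for the 4 groups of each harvest; bars are means of 3 libraries, error bars SD and circles the libraries. CIITA in ELF-153 drops from a mean of 1590 to 558 at 96 h, while the CD74 libraries of treated and untreated ELF-153 overlap.

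CD74, the invariant chain that escorts class II dimers to the endosome (chromosome 5), fell with DAC in UCSD-AML1 and did not pass the test in ELF-153. In UCSD-AML1 at 96 h it went from 455, 460 and 451 scaled reads to 259, 323 and 359, a log2 difference of −0.55 ± 0.19 (limma, adjusted p = 0.0322). At 144 h it went from 469, 455 and 478 to 221, 251 and 197, a log2 difference of −1.07 ± 0.21 (adjusted p = 0.00116). The groups did not overlap at either harvest, and the untreated libraries had SDs of 4.61 and 11.5. The 96 h call ended in edgeR with TMM (−0.40, adjusted p = 0.106) and RLE (−0.42, adjusted p = 0.0913), DESeq2 (−0.42, adjusted p = 0.0726), limma-voom (−0.41, adjusted p = 0.091) and limma after TMM scaling (−0.41, adjusted p = 0.0872). It also ended with no filter (adjusted p = 0.0642) and without any library of that comparison except treated replicate 3.

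In ELF-153 CD74 held 556, 833 and 815 scaled reads untreated and 550, 642 and 580 treated at 96 h. Untreated replicate 1 lay among the treated libraries. The log2 difference was −0.29 ± 0.19 (limma, adjusted p = 0.252). At 144 h the values were 1061, 712 and 725 untreated and 492, 751 and 721 treated, again overlapping, with a log2 difference of −0.35 ± 0.21 (adjusted p = 0.21). With each library's share of mitochondrial ribosomal RNA as a covariate, the ELF-153 differences were −0.69 (adjusted p = 0.0213) and −0.88 (adjusted p = 0.00871). In ELF-153 that share did not overlap between untreated and treated libraries, so fits with this covariate cannot cleanly separate it from DAC there. The line difference in the DAC effect did not pass at 96 h (0.26 ± 0.27, adjusted p = 0.504) or at 144 h (0.73 ± 0.29, adjusted p = 0.0774). At 144 h it passed without ELF-153 untreated replicate 1 (0.91, adjusted p = 0.0168) or treated replicate 1 (0.92, adjusted p = 0.0369). Untreated ELF-153 held more CD74 than untreated UCSD-AML1, by 0.66 ± 0.19 at 96 h (adjusted p = 0.00798) and 0.81 ± 0.21 at 144 h (adjusted p = 0.00587). The row CD74-203 held 84.8% of its reads at 96 h and 86.5% at 144 h.

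HLA-DRB1, the beta chain of HLA-DR (chromosome 6), fell with DAC in ELF-153 and not in UCSD-AML1, and its DAC effect differed between the lines at both harvests. In ELF-153 it went from 226, 107 and 207 scaled reads to 94.7, 80.2 and 88.1 at 96 h, a log2 difference of −0.96 ± 0.27 (limma, adjusted p = 0.0151). At 144 h it went from 159, 165 and 161 to 80.4, 94.5 and 81.3, a log2 difference of −0.92 ± 0.19 (adjusted p = 0.00167). Treated and untreated libraries did not overlap at either harvest. The 96 h call ended without untreated replicate 1 (−0.76, adjusted p = 0.0543) or 3 (−0.82, adjusted p = 0.0634), and with the mitochondrial covariate (−0.42, adjusted p = 0.386).

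In UCSD-AML1 HLA-DRB1 went from 92.3, 77.9 and 102 scaled reads to 109, 169 and 145 at 96 h. All treated libraries lay above the untreated ones, and the log2 difference was 0.62 ± 0.27 (limma, adjusted p = 0.0875). It passed in edgeR with TMM (0.77, adjusted p = 0.0384), DESeq2 (0.75, adjusted p = 0.0346) and limma after TMM scaling (0.76, adjusted p = 0.0472). It also passed in edgeR with RLE and in limma-voom. At 144 h the values were 131, 145 and 148 untreated and 160, 161 and 115 treated, with a log2 difference of 0.03 ± 0.19 (adjusted p = 0.924). The line difference in the DAC effect was −1.57 ± 0.38 at 96 h (adjusted p = 0.0105) and −0.94 ± 0.26 at 144 h (adjusted p = 0.0199). Without UCSD-AML1 untreated replicate 1 the 144 h difference was −0.89 (adjusted p = 0.0517). Untreated ELF-153 was higher than untreated UCSD-AML1 at 96 h (0.92 ± 0.27, adjusted p = 0.0105) and did not pass at 144 h (0.20 ± 0.19, adjusted p = 0.395).

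The lines drew their HLA-DRB1 reads from different transcript rows. HLA-DRB1 has 11 rows, of which 1 is a transcript of the reference chromosomes and the others carry the same symbol in GENCODE's symbol list but are not on those chromosomes. In UCSD-AML1 at 96 h the row ENST00000419393, one of the others, held 79.7, 65.1 and 86.7 scaled reads untreated and 99.3, 155 and 135 treated. The reference row held 10.5, 7.33 and 11.8 untreated and 5.9, 8.99 and 4.86 treated. In ELF-153 the first of these rows held at most 3.2 scaled reads in any library of either harvest, and the reference row held 194, 56.3 and 87.5 untreated and 53, 48.8 and 47.9 treated at 96 h.

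On the reference row alone the UCSD-AML1 direction was reversed, with log2 differences of −0.53 at 96 h (limma, adjusted p = 0.322) and −0.45 at 144 h (adjusted p = 0.246). The ELF-153 differences were then −0.97 (adjusted p = 0.0842) and −0.81 (adjusted p = 0.0506). The line difference in the DAC effect was −0.43 (adjusted p = 0.61) and −0.36 (adjusted p = 0.541), so it was called only with the other rows included. In UCSD-AML1 at 96 h the reference row held 7.33 to 11.8 scaled reads untreated and 4.86 to 8.99 treated. At such low levels this fit cannot decide whether the reference row lacks a line difference. HLA-DRB1 is highly polymorphic, and near-identical DRB genes share its sequence. Whether each row counted all reads of the allele a line carries was not tested, so differences in HLA-DRB1 level between the lines and differences in what the rows captured cannot be told apart.

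**Figure D2:**
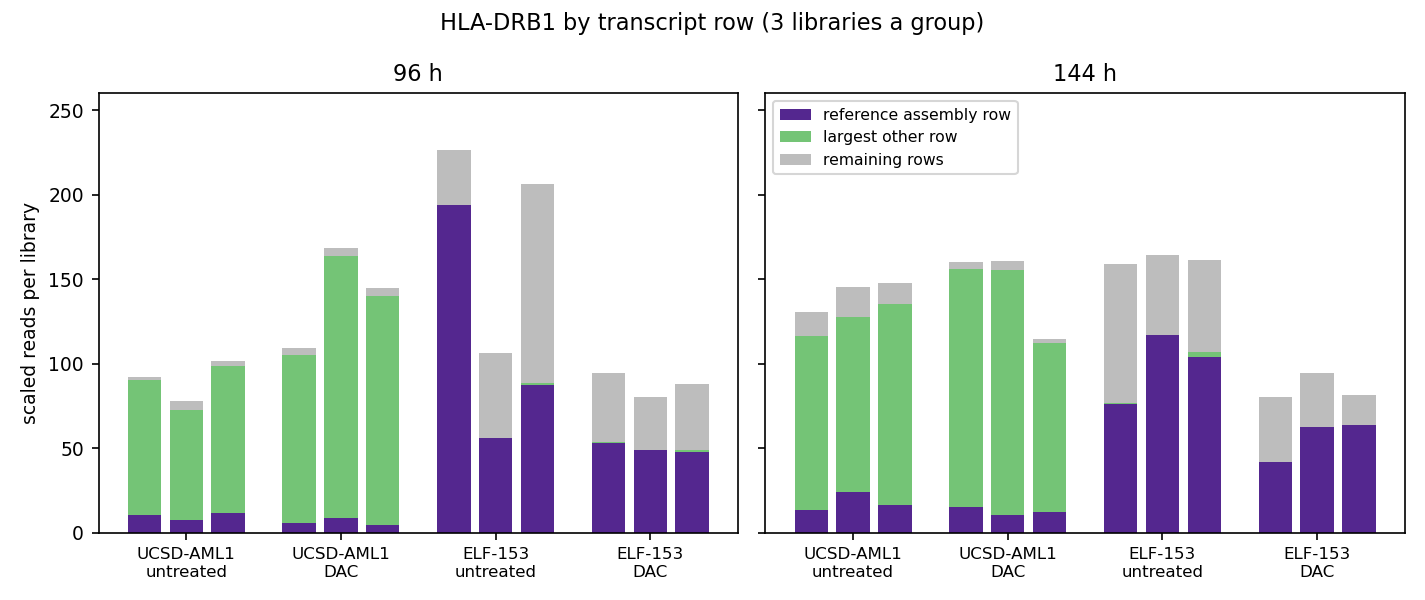
HLA-DRB1 scaled reads of each library (y axis), stacked by transcript row: the reference assembly row, the largest other row and the 9 remaining rows; 3 bars a group are replicates 1 to 3. UCSD-AML1 bars are mostly the largest other row (77.2 of a mean of 90.6 untreated at 96 h), and ELF-153 bars are mostly the reference row and the remaining rows.

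Other DRB genes, whose presence varies between haplotypes, were read in ELF-153. In ELF-153 at 96 h HLA-DRB5 held 503, 209 and 285 scaled reads untreated and 172, 138 and 163 with DAC. It had at most 1 read in any UCSD-AML1 library. The 96 h log2 difference was −0.98 ± 0.39 (limma, adjusted p = 0.0697) and that at 144 h −1.02 ± 0.40 (adjusted p = 0.0614), neither past the test. HLA-DRB3 and HLA-DRB4, which were added after their values were seen, behaved unevenly. HLA-DRB4 held 590, 241 and 44.7 in untreated ELF-153 at 96 h and 576, 55.7 and 51.2 at 144 h, with replicate 1 the highest at both harvests. Treated replicate 3 at 96 h held 212 against 18.9 and 25.3. HLA-DRB3 held 21.5 to 30.2 untreated and 10.5 to 17 treated in ELF-153 at 96 h (−0.96 ± 0.60, limma, adjusted p = 0.237). At 144 h its ELF-153 groups overlapped, at 19.6 to 29.6 and 13.7 to 19.8 (−0.48 ± 0.46, adjusted p = 0.445). In UCSD-AML1 at 144 h it had 7 reads untreated and 1 treated, a difference called lower (−1.27 ± 0.46, adjusted p = 0.038) on those few reads. The sum of HLA-DRB1, HLA-DRB3, HLA-DRB4 and HLA-DRB5 was 561 to 1350 in untreated and 254 to 475 in treated ELF-153 at 96 h, and 688 to 976 against 291 to 356 at 144 h. In UCSD-AML1 the sum was 78.8 to 103 untreated and 109 to 169 treated at 96 h, and 136 to 150 against 118 to 161 at 144 h. Reads of one DRB gene could be counted under another, so the split between them is uncertain.

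HLA-DQB1, the beta chain of HLA-DQ (chromosome 6), was read at low levels in both lines and no DAC effect passed. In UCSD-AML1 at 96 h it held 18.9, 10.1 and 12.6 scaled reads untreated and 16.7, 12.4 and 11.7 treated. In ELF-153 it held 1.12, 10.2 and 9.11 untreated and 5.68, 6.98 and 1.96 treated. Treated and untreated libraries overlapped in each line. At 144 h UCSD-AML1 held 8.84, 14.4 and 10.7 untreated and 11.8, 18.4 and 12.4 treated (log2 difference 0.30 ± 0.40, limma, adjusted p = 0.569). ELF-153 held 4.36, 5.92 and 4.27 untreated and 5.48, 8.26 and 12.1 treated (0.67 ± 0.40, adjusted p = 0.21). All untreated ELF-153 libraries lay below the untreated UCSD-AML1 libraries at 144 h. The fitted difference was −1.06 ± 0.40 (adjusted p = 0.0411). At that harvest the gene reached the filter level in 5 UCSD-AML1 libraries and 1 ELF-153 library, so that it was tested through the line where it is higher, and this call is given as a description only. It ended in DESeq2 (adjusted p = 0.0603), with a filter of 1 scaled read (0.059) or none (0.0995), in a fit of those 6 libraries alone (0.0603), with the mitochondrial covariate (0.246), and when any of the 6 was left out (adjusted p from 0.0514 to 0.137).

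Of 4 tested genes, 2 fell with DAC in UCSD-AML1 (CIITA and CD74) at each harvest and none rose in the main fit. Neither 96 h call held in edgeR with TMM or RLE, DESeq2, limma-voom or limma after TMM scaling. In those fits HLA-DRB1 was the only member called there, and it was higher. The background was 19.7% of 18778 genes and unassigned transcripts called higher and 19.6% lower at 96 h, and 20.0% higher and 26.2% lower of 18272 at 144 h. In ELF-153 also 2 of 4 fell (CIITA and HLA-DRB1) at each harvest, against a background of 20.0% higher and 12.7% lower at 96 h and 20.4% higher and 18.0% lower at 144 h. The median log2 difference of the 4 was −0.28 and −0.46 in UCSD-AML1 at 96 and 144 h, beside −0.03 and −0.12 over all features tested, and −0.63 at both harvests in ELF-153, beside 0.16 and 0.11. In the untreated comparison 3 of 4 were higher in ELF-153 at 96 h, where 22.8% of all features were higher and 34.6% lower. At 144 h 2 were higher and 1, HLA-DQB1, lower, where 28.9% were higher and 22.9% lower. For the line difference in the DAC effect 1 of 4, HLA-DRB1, was lower at each harvest, against 16.4% higher and 8.63% lower at 96 h and 19.3% and 10.2% at 144 h. With 4 tested genes these shares differ from the background by few genes. Over all features the share of calls that were higher changed with limma after TMM scaling, from 43.3% to 53.8% in UCSD-AML1 at 144 h, from 39.7% to 50.2% in the untreated comparison at 96 h, and from 65.6% to 53.7% and 65.5% to 51.9% for the line difference at 96 and 144 h. TMM scaling moved the median log2 difference over all features by 0.12 and 0.17 in UCSD-AML1 at 96 and 144 h and by −0.05 and −0.02 in ELF-153.

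**Figure D3:**
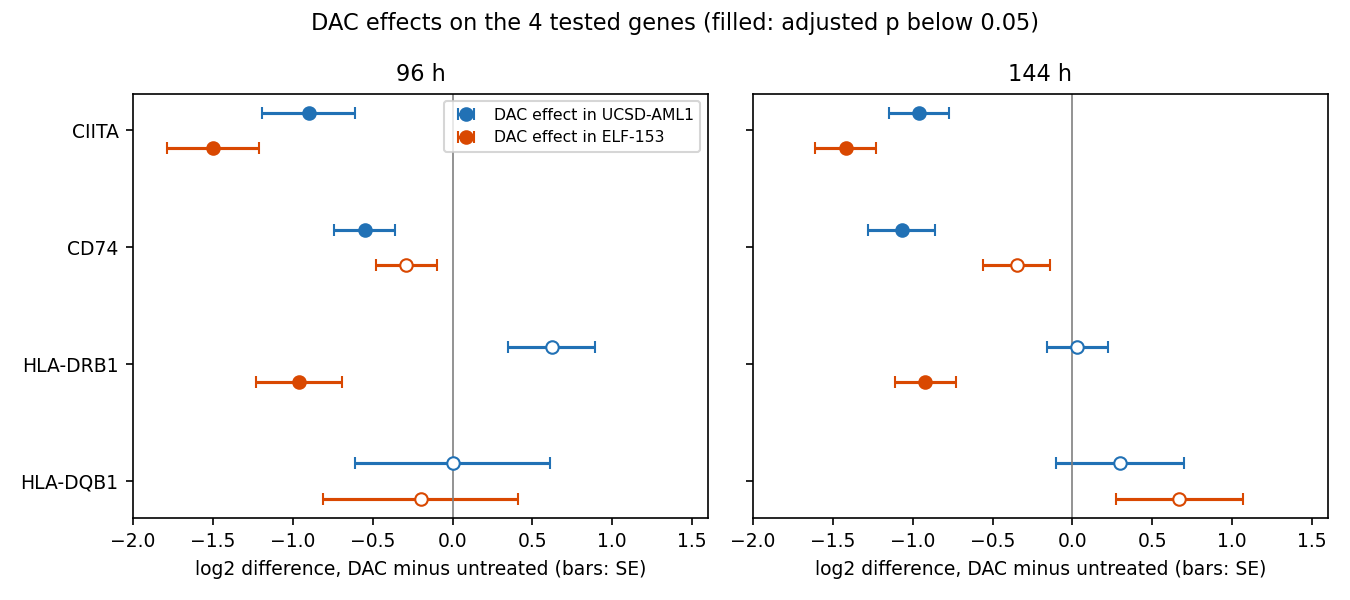
Log2 difference, DAC minus untreated, of the 4 tested genes in UCSD-AML1 (blue) and ELF-153 (orange) at each harvest; bars are SE and filled points have an adjusted p below 0.05 in limma. CIITA is filled and below 0 in all 4 comparisons, and HLA-DRB1 is filled in ELF-153 alone.

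The 6 members that failed the filter of 10 scaled reads in 3 libraries had few or no reads. HLA-DQA1, the alpha chain of HLA-DQ, had 3 reads in the untreated and 16 in the treated UCSD-AML1 libraries at 96 h, a ratio of 6.02 (95% counting interval 1.72 to 32.2). At 144 h it had 4 and 42 reads, a ratio of 9.82 (3.56 to 37.7), with 0, 3.83 and 0 scaled reads untreated and 11.8, 18.4 and 7.88 treated. Every treated library lay above every untreated one at both harvests. No test is given, because a looser filter would admit the gene mainly through its treated libraries. Most of these reads, 64.3% of 56 at 144 h, lay on a retained-intron row (HLA-DQA1-205), which had no read in ELF-153. In ELF-153 HLA-DQA1 had no read untreated and 6 treated at 96 h, and 4 and 6 at 144 h (ratio 1.53, 0.363 to 7.38). These intervals cover counting error only.

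In ELF-153 HLA-DPB1, the beta chain of HLA-DP, had 16 reads without and 16 with DAC at 96 h (ratio 0.92, 0.431 to 1.96), and 15 and 27 at 144 h (ratio 1.84, 0.943 to 3.72). In UCSD-AML1 it had 1 and 2 reads at 96 h and 2 and 6 at 144 h. HLA-DRA, the DR alpha chain that pairs with every DR beta chain, had 4 reads over the 12 libraries at 96 h and 6 at 144 h, all in ELF-153. HLA-DPA1, HLA-DMA and HLA-DMB were listed at 0 in all 24 libraries.

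A listing at 0 says little for these genes, because most protein-coding genes around them were listed at 0 too. Of 156 protein-coding genes between GABBR1 and KIFC1, the stretch of chromosome 6 that holds the class II genes, 127 (81.4%) had no read on their reference rows in any library at 96 h. With the rows of the same symbol added, 81 (51.9%) still had none, against 16.7% of the 856 genes of the rest of chromosome 6 and 14.0% on other chromosomes. TUBB, a tubulin that dividing cells need and a gene of this stretch, was listed at 0 in all libraries. Genes of the stretch had a median of 35 rows each, beside 3 for the rest of chromosome 6. The number of rows and the share at 0 go together here, and their part in the low values was not tested. CIITA and CD74 lie outside the stretch.

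**Figure D4:**
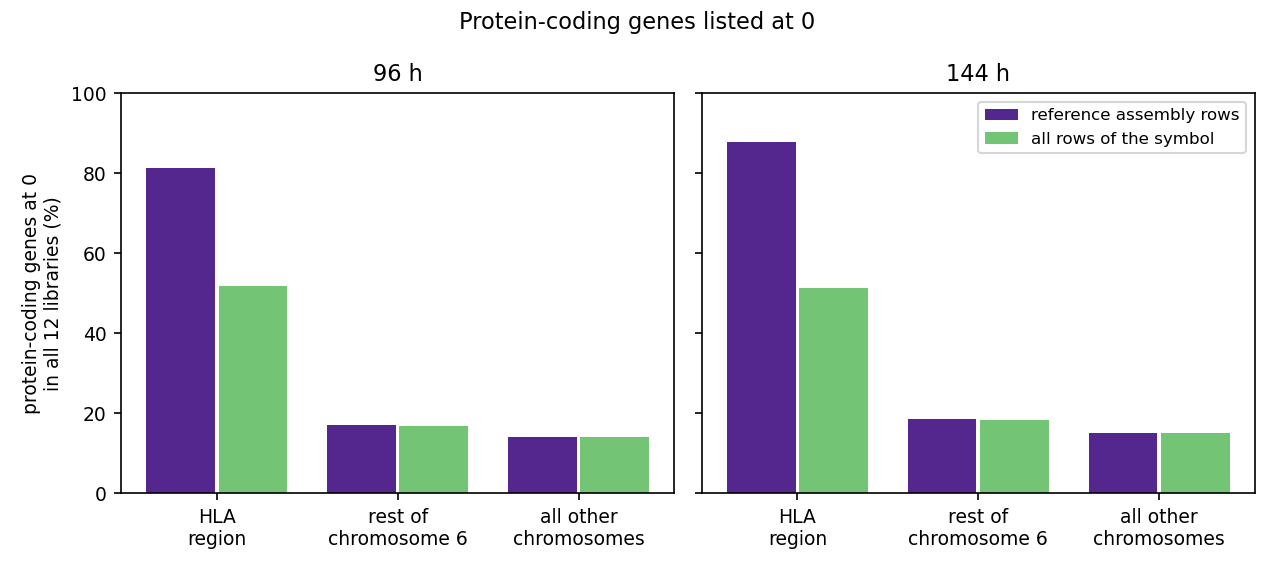
Share of protein-coding genes with no read in any of the 12 libraries of a harvest (y axis, %), on reference assembly rows (purple) and on all rows of the symbol (green). In the HLA region 81.4% are at 0 on reference rows at 96 h and 51.9% on all rows, against 16.7% in the rest of chromosome 6.

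The promoters of the 3 tested CIITA targets are shown because class II promoters are known to share the X and Y boxes through which CIITA acts. Each is the 250 bases before the gene's start in RefSeq (GRCh38.p14, reference alleles, minus strand), at chr5:150412911-150413160 for CD74, chr6:32589849-32590098 for HLA-DRB1 and chr6:32666658-32666907 for HLA-DQB1. Capitals mark CCAAT or its reverse complement ATTGG, the core of the Y box, and CTGATGATG, a string of the X box chosen after the sequences were seen and searched on both strands.
CD74: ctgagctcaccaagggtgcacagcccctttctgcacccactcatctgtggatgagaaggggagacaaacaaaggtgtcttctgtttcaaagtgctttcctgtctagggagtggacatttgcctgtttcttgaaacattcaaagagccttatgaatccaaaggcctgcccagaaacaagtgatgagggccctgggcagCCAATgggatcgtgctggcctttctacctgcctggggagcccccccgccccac
HLA-DRB1: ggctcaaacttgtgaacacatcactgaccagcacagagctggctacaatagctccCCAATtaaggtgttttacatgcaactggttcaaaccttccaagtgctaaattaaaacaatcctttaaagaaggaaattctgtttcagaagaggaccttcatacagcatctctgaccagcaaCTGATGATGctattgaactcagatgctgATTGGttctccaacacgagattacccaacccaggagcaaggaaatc
HLA-DQB1: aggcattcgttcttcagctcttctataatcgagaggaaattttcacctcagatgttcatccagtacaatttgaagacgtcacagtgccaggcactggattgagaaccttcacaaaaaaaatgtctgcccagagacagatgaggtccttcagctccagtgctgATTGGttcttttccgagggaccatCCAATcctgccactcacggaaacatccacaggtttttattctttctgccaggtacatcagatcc
In HLA-DRB1 the CTGATGATG begins 74 bases and an ATTGG 46 bases before the start, and in CD74 a CCAAT begins 53 bases before it. Of the 8 members in the RefSeq table, 7 hold CCAAT on either strand in these windows (HLA-DPA1 does not), beside 32.0% of 35116 promoters. CTGATGATG is held by HLA-DRB1, HLA-DMA and HLA-DMB, beside 0.222% of all promoters. The string was chosen after the sequences were seen, so that share is no test of it. HLA-DRB1, called in ELF-153, and HLA-DMA and HLA-DMB, listed at 0, thus hold the same strings, though a listing at 0 says little here. CIITA and HLA-DRA have no entry in the table.

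The genes of the proteins that recruit CIITA to these promoters were all tested at the RNA level, 7 of 7 passing the filter. RFXAP, a subunit of the RFX complex on the X box, fell in both lines. In UCSD-AML1 it went from 170, 107 and 110 scaled reads to 44.3, 34.8 and 40.8 at 96 h (log2 difference −1.64 ± 0.31, limma, adjusted p = 0.000973). In ELF-153 it went from 97.5, 73.8 and 54.7 to 22.7, 48.8 and 28.4 (−1.19 ± 0.31, adjusted p = 0.01). Treated libraries lay below untreated ones in each line. NFYB, a subunit of the CCAAT-binding NF-Y, fell in UCSD-AML1 from a mean of 301 to 96.2 at 96 h (−1.69 ± 0.25, adjusted p = 0.000147) and from 238 to 51 at 144 h. NFYC rose there (0.69 ± 0.23, adjusted p = 0.0319, at 96 h). RFX5, the large RFX subunit, fell in UCSD-AML1 at 144 h (−0.93 ± 0.26, adjusted p = 0.0108) and rose in ELF-153 at 96 h (0.70 ± 0.23, adjusted p = 0.0287). In all, 1 rose and 2 fell in UCSD-AML1 at 96 h, 1 rose and 3 fell at 144 h, 1 rose and 1 fell in ELF-153 at 96 h, and none rose and 1 fell at 144 h. The median over the 7 was −0.21, −0.52, 0.51 and 0.17 in that order, beside −0.03, −0.12, 0.16 and 0.11 over all features. Over all features 19.7% were higher and 19.6% lower, 20.0% and 26.2%, 20.0% and 12.7%, and 20.4% and 18.0% in the same order, so these counts lie near the background.

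CIITA is known to be induced by interferon gamma through JAK kinases and the factor IRF1. IFNG was listed at 0 in all libraries, and 8 of the 9 genes reported from this list were tested. JAK2 rose in both lines at both harvests, by 1.26 ± 0.28 in UCSD-AML1 (limma, adjusted p = 0.00291) and 0.86 ± 0.28 in ELF-153 (adjusted p = 0.0305) at 96 h. SOCS1, which restrains JAK signalling, rose in UCSD-AML1 at 96 h (1.20 ± 0.22, adjusted p = 0.000766). IRF1, an activator of the inducible CIITA promoter, rose at 144 h in UCSD-AML1 (0.75 ± 0.17, adjusted p = 0.003) and ELF-153 (0.99 ± 0.17, adjusted p = 0.000477). Of these 8, 4 rose in UCSD-AML1 and 3 in ELF-153 at 96 h, and 3 and 6 at 144 h, with none of the 8 lower. Over all features 19.7% and 20.0% were higher and 19.6% and 12.7% lower at 96 h. At 144 h 20.0% and 20.4% were higher and 26.2% and 18.0% lower. The medians over the 8 were 0.56 and 0.52 at 96 h and 0.37 and 0.72 at 144 h, beside −0.03, 0.16, −0.12 and 0.11 over all features.

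Of other known regulators of CIITA in blood cells, all 10 listed were tested. PRDM1, a repressor of CIITA in plasma cells, was low without DAC. At 96 h it held 3.15, 4.58 and 4.73 scaled reads untreated and 8.85, 21.4 and 12.6 treated in UCSD-AML1, and 5.6, 11.3 and 3.65 untreated and 19.9, 16.6 and 19.6 treated in ELF-153. IRF8, a myeloid and B-cell transcription factor, held 7.84, 1.02 and 0.911 untreated and 22.7, 24.4 and 22.5 treated in ELF-153 at 96 h. The treated libraries lay above the untreated ones in each of these comparisons. PRDM1 passed the filter mainly through treated libraries and IRF8 partly so, and their differences are therefore described without a test, although both are among the counts below. SMARCA4, the ATPase of a remodelling complex used at the CIITA gene, fell in ELF-153 from 332, 284 and 250 to 104, 115 and 133 at 96 h (−1.29 ± 0.21, adjusted p = 0.000363). In UCSD-AML1 it held 120, 169 and 164 untreated and 163, 127 and 113 treated. EP300, a histone acetyltransferase, rose in UCSD-AML1 (1.18 ± 0.23, adjusted p = 0.00108, at 96 h), and HDAC2 fell there (−1.61 ± 0.40, adjusted p = 0.00542). At 144 h CREBBP rose in UCSD-AML1 (1.09 ± 0.23, limma, adjusted p = 0.00192) and EZH2 fell (−1.58 ± 0.33, adjusted p = 0.00176). The DAC differences of IRF4 were 2.23 ± 0.60 at 96 h and 3.78 ± 0.60 at 144 h in ELF-153. In UCSD-AML1 they were 1.53 ± 0.60, which did not pass, and 1.79 ± 0.60. At 96 h 2 of 10 rose and 1 fell in UCSD-AML1 and 3 rose and 1 fell in ELF-153, with medians of −0.16 and 0.06, where 19.7% of all features were higher and 19.6% lower in UCSD-AML1 and 20.0% and 12.7% in ELF-153. At 144 h 4 rose and 3 fell and 5 rose and 1 fell, with medians of 0.23 and 0.33, where 20.0% were higher and 26.2% lower and 20.4% and 18.0%. The counts at 96 h lie near those shares.

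Of 9 genes of endosomal processing, 7 were tested. CTSZ, a lysosomal carboxypeptidase, rose in every treated group, from a mean of 455 to 1826 scaled reads in UCSD-AML1 (2.00 ± 0.18, limma, adjusted p = 1.61e-06) and from 452 to 1374 in ELF-153 (1.59 ± 0.18, adjusted p = 1.27e-05) at 96 h. CTSS, the protease that trims the invariant chain in antigen-presenting cells, fell in UCSD-AML1 and rose in ELF-153. At 96 h it went from 493, 506 and 472 to 279, 336 and 358 in UCSD-AML1 (−0.60 ± 0.19, adjusted p = 0.0216) and from 237, 252 and 303 to 369, 564 and 410 in ELF-153 (0.74 ± 0.19, adjusted p = 0.00819). Neither pair of groups overlapped. CTSC, a dipeptidyl peptidase, fell in UCSD-AML1 (−1.54 ± 0.47, adjusted p = 0.0184), and CTSD, a lysosomal aspartic protease, rose there (1.01 ± 0.24, adjusted p = 0.00408). At 96 h 3 rose and 2 fell in UCSD-AML1 and 2 rose and none fell in ELF-153 (medians −0.23 and 0.32), beside 19.7% higher and 19.6% lower and 20.0% and 12.7% of all features. At 144 h the counts were 2 and 2 against 2 and none (medians 0.02 and 0.84), beside 20.0% and 26.2% and 20.4% and 18.0%. MARCH8, a ubiquitin ligase that removes class II from the surface, rose in UCSD-AML1 from 471, 435 and 475 to 750, 773 and 769 at 96 h (0.73 ± 0.16, adjusted p = 0.00234) and in ELF-153 at 144 h (0.67 ± 0.15, adjusted p = 0.00316). It and HLA-DRB5 were the tested genes among the 7 other class II chains and turnover genes, and HLA-DOA and HLA-DOB were listed at 0.

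Class I presentation, which brings peptides from the cytosol to CD8 T cells, was set beside class II, and its transactivator moved the other way. NLRC5, the class I counterpart of CIITA, rose in UCSD-AML1 from 167, 182 and 165 scaled reads to 854, 816 and 602 at 96 h (2.12 ± 0.18, limma, adjusted p = 9.17e-07). In ELF-153 it rose from 73.9, 67.6 and 72 to 215, 183 and 179 (1.42 ± 0.18, adjusted p = 3.61e-05). At 144 h the differences were 2.68 ± 0.20 and 1.88 ± 0.20. HLA-B, a class I heavy chain, rose in both lines. At 96 h its mean went from 149 to 321 in UCSD-AML1 (1.11 ± 0.21, adjusted p = 0.000908) and from 125 to 538 in ELF-153 (2.09 ± 0.21, adjusted p = 4.19e-06). B2M, the class I light chain, rose in ELF-153 at 96 h (1.17 ± 0.24, adjusted p = 0.00184). Of 13 tested genes of 15, 4 rose and none fell in each line at 96 h (medians 0.82 and 0.51). Over all features 19.7% were higher and 19.6% lower in UCSD-AML1, and 20.0% and 12.7% in ELF-153. At 144 h 4 rose and 1 fell in UCSD-AML1 and 5 rose and none fell in ELF-153 (medians 0.51 and 0.54). Over all features 20.0% were higher and 26.2% lower in UCSD-AML1, and 20.4% and 18.0% in ELF-153. Many of the class I genes lie in the same stretch of chromosome 6, so that their levels carry the limit given for the class II chains.

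**Figure D5:**
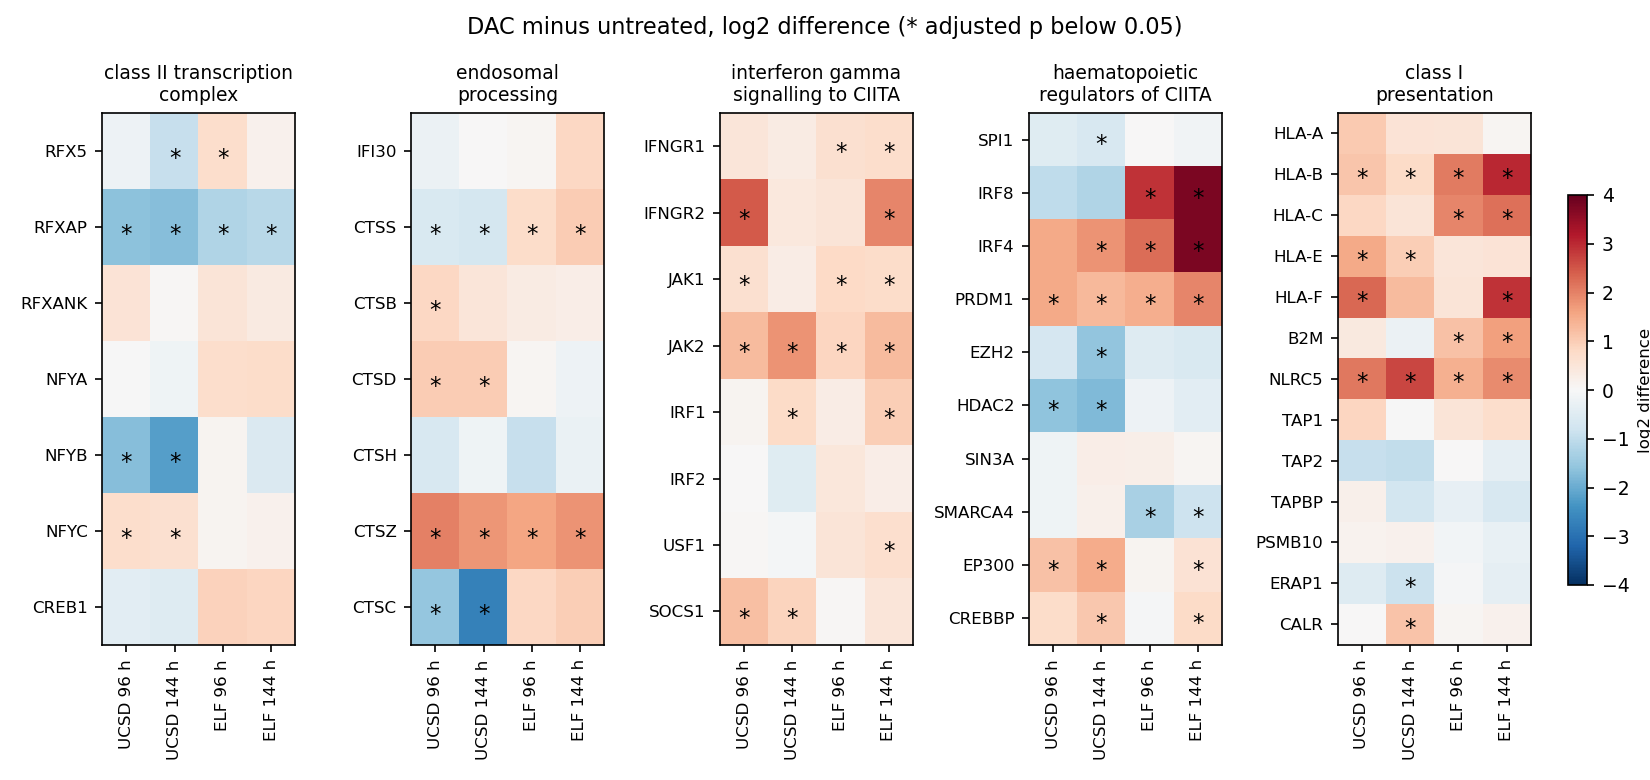
Log2 difference, DAC minus untreated (colour, red higher, blue lower), of the tested genes of 5 lists in the 4 DAC comparisons; stars mark an adjusted p below 0.05 in limma. RFXAP is blue and starred in all 4 columns, NLRC5, CTSZ and JAK2 are red and starred in all 4, and CTSS is blue in UCSD-AML1 and red in ELF-153.

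Markers of cell types that carry class II were read in both lines. The summed level of 7 B-cell markers was 379 to 406 scaled reads in untreated and 188 to 219 in treated UCSD-AML1 at 96 h, and 608 to 863 against 469 to 559 in ELF-153. MS4A1, which encodes CD20, was listed at 0 in every library. In UCSD-AML1 CD79A, part of the B-cell receptor, fell from 267, 302 and 302 to 96.4, 125 and 92.3 at 96 h (−1.48 ± 0.23, limma, adjusted p = 0.000176), and in ELF-153 from 170, 96.3 and 147 to 92.8, 73.3 and 81.2 (−0.70 ± 0.23, adjusted p = 0.0284). PAX5, the B-cell identity factor, held 433 to 589 in untreated ELF-153 and 35.7 to 48.9 in untreated UCSD-AML1 at 96 h. Against the direction of CD79A, it rose with DAC in UCSD-AML1, by 0.72 ± 0.19 at 96 h (adjusted p = 0.00919) and 1.48 ± 0.22 at 144 h (adjusted p = 0.000162). The dendritic-cell sum was 1830 to 1999 in untreated and 694 to 1195 in treated UCSD-AML1 at 96 h and 52.2 to 75 against 68.5 to 88.1 in ELF-153. CLEC9A, a receptor of a dendritic cell subset, made up most of it in UCSD-AML1 and fell there from 1929, 1749 and 1745 to 530, 582 and 812 (−1.52 ± 0.38, adjusted p = 0.0061), while XCR1, another marker of that subset, was at 0 in UCSD-AML1 at that harvest. FCER1A, a chain of the IgE receptor on the same list, rose at 96 h in UCSD-AML1 from 23.1, 19.2 and 19.7 to 128, 128 and 331 (3.03 ± 0.43, adjusted p = 0.000103) and in ELF-153, on 1 read untreated and 17 treated, from a mean of 0.304 to 5.27 (2.33 ± 0.43, adjusted p = 0.000981). The monocyte sum was 175 to 278 in untreated and 1287 to 1620 in treated ELF-153 at 96 h, mostly LYZ, and 463 to 545 against 541 to 616 in UCSD-AML1. CD14 and FCGR3A were at 0 in the untreated libraries of that harvest. All 3 megakaryocyte markers, PF4, ITGA2B and GP9, rose in both lines at both harvests. Over all features 19.7% were higher in UCSD-AML1 and 20.0% in ELF-153 at 96 h, and 20.0% and 20.4% at 144 h. Their untreated log2 differences at 96 h, ELF-153 minus UCSD-AML1, were −6.43 ± 0.33 for PF4, −0.80 ± 0.18 for ITGA2B and −10.13 ± 0.33 for GP9. The T-cell sum was 41 to 49.3 in untreated and 663 to 1015 in treated UCSD-AML1 at 96 h, and 147 to 160 against 390 to 449 in ELF-153. CD8A was at 0 in all of these libraries, and CD3E was at 0 in treated UCSD-AML1. The sum of the 7 progenitor and blast markers was 7327 to 7908 in untreated and 3662 to 3982 in treated UCSD-AML1 at 96 h, beside 3240 to 3700 and 3703 to 4226 in ELF-153. At 144 h it was 5638 to 6733 against 2649 to 2906 in UCSD-AML1 and 3333 to 3672 against 2680 to 3244 in ELF-153. CD33 fell in both lines at both harvests. KIT and MECOM fell in UCSD-AML1 at both harvests, by 2.32 and 1.12 on the log2 scale at 96 h (adjusted p = 0.0013 and 0.0282), and MECOM went from 1 read to 37 in ELF-153 at 144 h. CD34 fell in ELF-153 at both harvests and in UCSD-AML1 at 144 h, while CD38 rose in both lines at 96 h. The part of such cells or states in the class II values was not tested.

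The 5 genes whose profile over the 12 libraries at 96 h was closest to CIITA were LILRA2 (Pearson r = 0.992), SH2D3C (0.985), AL031186.1 (0.983), CRACR2A (0.983) and KANK1 (0.983). At 144 h they were CBR3 (0.993), HIST1H3J (0.993), ARMH1 (0.989), NOM1 (0.988) and NRXN2 (0.987). LILRA2, an activating receptor of myeloid cells, had a mean of 94.1 scaled reads without and 21.2 with DAC in ELF-153 at 96 h, and 2.45 and 0.328 in UCSD-AML1. No gene stood in both sets of 5. For the mean profile of the 4 tested members the closest were MREG (0.905), IGLL1 (0.896), BRAT1 (0.891), ANO7 (0.888) and AL031848.2 (0.882) at 96 h, and KNSTRN (0.928), AC079600.1 (0.917), AC092295.2 (0.913), AKR1B1P2 (0.913) and BANF1P2 (0.91) at 144 h. The 12 libraries fall into 4 groups, so these coefficients mostly describe the order of 4 group means.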

How the data were processed

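Total RNA of 24 libraries was measured. The deposited tables give a signal for each transcript, its read number over a size factor that belongs to the library. Per the submitters' processing notes, FastQC, TopHat2, STAR, HTSeq, DESeq2 and hg19 were used; versions and the step each tool served are not given in the sources used here. Dividing by the smallest step of a library returned whole reads for 100% of its values above 0 (tolerance 0.01 of a read). Of 204940 transcripts, 181859 (88.7%) matched GENCODE 29 reference chromosome genes (GRCh38, names only), 7159 more were added through GENCODE's symbol list, and 15922 were tested singly. The alternative of reference rows only was chosen after seeing the data. Rows of HLA genes may share reads with paralogs and allelic copies, so they are uncertain.

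The main test was limma 3.58.1 (R 4.3.3) on log2(gene sum + 1): 1 mean per group, fitted to all 12 libraries of a harvest with trend and robust settings. A gene was tested if 3 libraries held 10 scaled reads or more, and called where its Benjamini-Hochberg adjusted p was under 0.05. The design had named this for scaled values, and edgeR 4.0.16 (quasi-likelihood, on recovered reads) and DESeq2 1.42.0 were alternatives, beside limma-voom, TMM scaling in limma, pseudocounts 0.5 and 8, filters of 1 or none, the 6 libraries compared, protein-coding rows, a mitochondrial rRNA covariate, a replicate block and leaving out each library. Fits were tested on simulated data. Deviations of same-numbered untreated and treated libraries correlated at 0.13, 0.12 and 0.26 in UCSD-AML1 at 144 h. Untreated replicate 2 and treated replicate 1 correlated at 0.13 there too, so whether the numbers pair is not settled. In each other line and harvest 1 or more same-numbered pairs were at or below 0.1. In ELF-153 the same-numbered pairs were at 0.29, 0.32 and −0.04 at 96 h, and at −0.23, −0.31 and 0.16 at 144 h. All 10 members are named; of other lists, up to 4 genes a comparison by smallest adjusted p, and the 5 closest profiles. Ratios of few reads carry exact 95% intervals. Members and lists were chosen with earlier results of these data known. Repeat families were not used here, and 1 gene of the interferon gamma list is not reported here. Tables and figures used Python, numpy, pandas, scipy and matplotlib.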

Additional observations from a re-analysis of the deposited data

Results flagged for a closer look

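The DAC effect on HLA-DRB1 differed between the lines in a direct test at both harvests. The log2 difference, ELF-153 minus UCSD-AML1, was −1.57 ± 0.38 (SE) at 96 h (limma, adjusted p = 0.0105) and −0.94 ± 0.26 at 144 h (adjusted p = 0.0199), with 3 libraries in each group. In ELF-153 every treated library lay below every untreated one at both harvests. In UCSD-AML1 every treated library lay above every untreated one at 96 h, and the groups overlapped at 144 h. On the reference row alone neither difference passed (−0.43, adjusted p = 0.61, and −0.36, adjusted p = 0.541), and the UCSD-AML1 difference at 96 h was −0.53 there, beside 0.62 over all rows. That row held 7.33 to 11.8 scaled reads in untreated UCSD-AML1 at 96 h. The cause was not tested.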

How the results depend on the processing

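The 2 calls in UCSD-AML1 at 96 h, CIITA and CD74, were the least stable. The count of members called there was 1 in edgeR with TMM, edgeR with RLE, DESeq2, limma-voom and limma after TMM scaling, where HLA-DRB1 was the one called, and 0 to 3 when 1 library was left out. In ELF-153 at 96 h the count of 2 was 1 with the 6 libraries compared or reference rows only, and 1 to 2 without 1 library. In the untreated comparison at 96 h the count of 3 became 5 with no filter. The count of 2 in ELF-153 at 144 h became 1 with reference rows only. The 1 line difference became 0 with reference rows only at both harvests and with no filter at 144 h, where leaving out 1 library gave 0 to 2. Reference rows only, the 6 libraries compared and leaving out 1 library use fewer rows or libraries. The edgeR, DESeq2, limma-voom and TMM fits used the same genes and libraries as the main fit. TMM scaling in limma moved the median log2 difference over all features by 0.12 in UCSD-AML1 at 96 h. The cause of these changes was not tested.

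Directions reversed for HLA-DRB1 and HLA-DQB1 only, in comparisons where neither was called. HLA-DRB1 in UCSD-AML1 was −0.53 (96 h) and −0.45 (144 h) on reference rows only, and from −0.05 to 0.19 at 144 h without 1 library. HLA-DQB1 in UCSD-AML1 at 96 h, 0.00 with limma, was 0.13 in edgeR with TMM and in limma after TMM scaling, 0.11 in edgeR with RLE and in DESeq2, 0.16 in limma-voom, 0.00 with pseudocount 0.5, and from −0.19 to 0.23 without 1 library. In ELF-153 and for the line difference at 96 h it ran from −0.98 to 0.23 without 1 library, and with the mitochondrial covariate the untreated difference was 0.67.

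With the replicate number as a block, no member call changed: CIITA in UCSD-AML1 at 96 h was −0.90 (limma, adjusted p = 0.00936). Over all features that fit called 3560 higher and 4799 lower in UCSD-AML1 at 144 h, beside 3651 and 4786. Its counts moved more at 96 h. There it called 3874 higher and 4181 lower in UCSD-AML1, beside 3694 and 3678, and 4383 and 2641 in ELF-153, beside 3759 and 2379. For the line difference at 96 h it called 3730 and 1852, beside 3086 and 1620. With protein-coding rows alone, counts over all features were smaller by more than 1.5 times in every comparison, since fewer rows were counted. In the order UCSD-AML1, ELF-153, untreated comparison and line difference they were, higher and lower, 1997 and 2292, 2242 and 1428, 2532 and 3618, and 2028 and 952 at 96 h, beside 3694 and 3678, 3759 and 2379, 4283 and 6502, and 3086 and 1620. At 144 h they were 2077 and 2788, 2267 and 1952, 3051 and 2480, and 2280 and 1098, beside 3651 and 4786, 3725 and 3285, 5275 and 4178, and 3534 and 1858. With the mitochondrial covariate they were 2461 and 1579 in ELF-153 and 2574 and 3695 untreated at 96 h, and 3337 and 2263 untreated and 1396 and 557 for the line difference at 144 h. The line difference at 144 h had 2129 higher in edgeR with TMM and 2278 with RLE. Leaving out 1 library moved only line difference counts that far, to 1046 or 1073 lower at 96 h and to between 1796 and 2320 higher and between 1066 and 1204 lower at 144 h.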
